A study of Mus musculus with 24 samples.

Results

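The genes described here are 8 genes known as markers of lipid-associated macrophages, chosen by their symbols: Trem2, Tyrobp, Apoe, Lgals3, Gpnmb, Cd63, Cd9 and Fabp5. All 8 of them were found among the 14912 genes of the deposited table, and all 8 passed the filter on low values (a mean of at least 0.1 FPKM over all samples), as did 14026 genes in all. RNA of the left ventricle was sequenced after poly(A) selection in male wild-type C57BL/6J mice. The hypertensive-LVH group held 12 mice that received angiotensin II (ANG II, 1500 ng/kg/min) from osmotic mini-pumps over 7 days and is also called the ANG II group here, and the control group held 12 mice infused with saline in the same way. The labels give neither the age of the mice nor any other allele or agent. The study describes further mice of both groups, which were not analysed here.

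Lipid-associated macrophages are macrophages that take up and degrade lipid and cell debris, and they have been described in fat tissue, atherosclerotic plaques and injured hearts. Their programme depends on TREM2, a receptor of the cell surface that binds lipids, lipoproteins and apolipoproteins. TREM2 has no signalling tail of its own and passes its signal through the adaptor TYROBP (DAP12) to the kinase SYK. Downstream of it, such cells carry more of the lysosomal and lipid-handling proteins that the other genes encode. Trem2 and Tyrobp are genes of myeloid cells, whereas the other genes are also active elsewhere in the heart: endothelial cells express Fabp5 and Cd9, and fibroblasts express Apoe, Lgals3 and Cd63.

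Some properties of the table bear on all results. FPKM is a fragment count scaled by the length of the transcript and the depth of the library, yet 2741 values of the table (0.766%) lay below 0, so the values had been adjusted after they were computed. Within each group, many genes held exactly the same value in several samples, and these ties joined samples 1 to 3, 4 to 6, 7 to 9 and 10 to 12 of each group. Between an ANG II sample and a control of the same set at most 76 genes were tied, under the 100 required, so ties did not join the groups, and the triples of both groups were put together by their sample numbers as set 1, set 2, set 3 and set 4. Moreover, the spacing of the values matched an adjustment that took the group into account, so p-values from the deposited values can be too small. The sources used here do not say what the sets are. Controls 4 to 6 stood apart from the other controls in the deposited values, since the summed FPKM of 8 fibroblast markers was 25.1 to 177 in them and 842 to 1018 in the other 9 controls. The same sum was 1654 to 2639 in ANG II samples 4 to 6 and 708 to 1906 in the other ANG II samples. Each set was shifted before deposit by an amount that could not be recovered. A trait of these controls and the shift of their set cannot be told apart. Results are therefore given over all samples, within the sets, and without controls 4 to 6.

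The positions of the genes were taken from GENCODE vM21 (GRCm38), and the build behind the deposited table is not given in the sources used here. Trem2 lies at chr17:48346401-48354147 on the plus strand and Gpnmb at chr6:49036546-49070929 on the plus strand. The 250 bases before the start site are printed for these 2 genes, because 8 of the 12 ANG II samples lay above all controls for them. The same held for Cd63, whose RefSeq window lies inside the gene and is not printed. The sequences are from RefSeq (GRCm38.p6), read 5′ to 3′ along the gene, and capitals mark matches to motifs that were searched on both strands. Trem2 is at chr17:48346151-48346400 and Gpnmb at chr6:49036268-49036517.
Trem2: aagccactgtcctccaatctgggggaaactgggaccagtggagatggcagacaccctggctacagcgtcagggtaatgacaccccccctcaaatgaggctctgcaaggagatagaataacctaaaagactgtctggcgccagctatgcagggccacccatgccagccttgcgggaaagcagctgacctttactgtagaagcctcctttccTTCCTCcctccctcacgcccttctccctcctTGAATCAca
Gpnmb: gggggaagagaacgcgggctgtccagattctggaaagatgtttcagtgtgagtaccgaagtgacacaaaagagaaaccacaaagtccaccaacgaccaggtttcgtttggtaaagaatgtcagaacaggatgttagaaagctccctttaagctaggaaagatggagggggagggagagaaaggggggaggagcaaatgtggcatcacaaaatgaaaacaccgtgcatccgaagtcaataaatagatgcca

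The motifs were searched in windows from 250 bases before to 50 bases after the start site. In the Trem2 window the core of PU.1, a factor of myeloid cells (GAGGAA, 28.3% of 32851 promoters), was found on the opposite strand 40 bases before the start site. The AP-1 motif (TGANTCA, 7.81% of promoters) followed 9 bases before it, and a C/EBP motif (TTGCNNAA, 10.8%) lay 22 bases after it, beyond the printed stretch. In the Gpnmb window AP-1 was found 8 bases after the start site, also beyond the printed stretch, and no motif matched within it. The M-box TCATGTG (3.77%) and the CLEAR core TCACGTG (3.77%), which bind MITF and TFEB, were in none of the members' windows, and TATAAA (13.6%) was found in 1 of the 3 Apoe windows. The PU.1 core was also present in 2 of the Apoe windows and in the Cd63 window, and the windows of Lgals3 and Cd9 held none of the motifs. Like that of Cd63, the Lgals3 window lies inside the gene by the GENCODE positions, with its 250 bases before the start site at chr14:47373610-47373859. The same holds for the Apoe windows whose 250 bases before the start site lie at chr7:19698622-19698871 and chr7:19698399-19698648. A match is a run of letters and not evidence of binding. Windows were found for 6 of the 8 genes, not for Tyrobp and Fabp5.

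In the left ventricle, 7 of the 8 genes had a higher level in the ANG II group than in the control group, at 1.34-fold to 2.87-fold on the log2(FPKM + 1) scale. Trem2 and Lgals3 had the largest fold changes of the 8, and Fabp5 was the gene that did not pass the test. A gene was called when the adjusted p of limma, a linear model fitted across all 14026 genes with Benjamini-Hochberg adjustment, was under 0.05, and 20.9% of all genes tested were called higher. Of all calls 62.3% were higher, a share that fell to 51.7% after median-ratio scaling and 39.8% after quantile normalization, while 7 of the 8 genes were called higher under each of them. With the study's threshold of an absolute log2 fold change over 0.5 added, 6 of the 8 genes were differentially expressed genes (DEGs), against 4.52% of all genes as DEGs with an increase. The median log2 fold change of the 8 genes was 0.72, and that of all genes was 0.05. Without controls 4 to 6, an alternative added after the data were seen, 5 of the 8 genes were called higher (12.3% of all genes) and 4 were DEGs (3.03% of all genes as DEGs with an increase). Apoe (adjusted p = 0.0719) and Cd9 (adjusted p = 0.171) lost their calls in this fit of limma. These are RNA levels of whole tissue, in which more cells of a type and more RNA per cell cannot be told apart.

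Trem2, the lipid receptor, ranged from 0.775 to 13.9 FPKM in the ANG II group, with a median of 6.44. In the control group it ranged from -0.593 to 4.79 FPKM, with a median of 1.28, and control 5 held the only value below 0 among the 8 genes. Of the 12 ANG II samples, 8 lay above the highest control and 11 above the control median. The lowest value of the group, in sample 12, lay inside the range of the controls. The log2 fold change was 1.52 ± 0.35 (SE, n = 12 per group; limma, adjusted p = 0.00179), and with a pseudocount of 0.1 in place of 1 it was 2.35 (adjusted p = 0.00351).

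Tyrobp, the adaptor of TREM2 and of several other myeloid receptors, lies at chr7:30413760-30417585 on the plus strand, 126 bases before Hcst, the gene of the related adaptor DAP10. It ranged from 13.1 to 56.3 FPKM (median 30.0) in the ANG II group and from 9.54 to 31.7 FPKM (median 16.8) in the control group. The groups overlapped, with 6 of 12 ANG II samples above the highest control. The log2 fold change of Tyrobp was 0.82 ± 0.22 (SE; limma, adjusted p = 0.00531), which is 1.77-fold.

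Apoe, the apolipoprotein that TREM2 binds and that macrophages secrete, lies at chr7:19696109-19699188 on the minus strand. Its deposited values were the highest of the 8 genes in both groups, at 323 to 1077 FPKM (median 553) in the ANG II group and 201 to 550 FPKM (median 403) in the control group. Samples 6 and 8 of the ANG II group held its highest values, 1077 and 889 FPKM, and 6 of 12 samples exceeded all controls. For Apoe the log2 fold change was 0.62 ± 0.18 (SE; limma, adjusted p = 0.00971).

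Lgals3 encodes galectin-3, a lectin that macrophages secrete and that has been described as a ligand of TREM2. The gene lies at chr14:47367751-47386160 on the plus strand. It ranged from 6.03 to 42.2 FPKM (median 17.8) in the ANG II group and from 2.33 to 21.1 FPKM (median 6.20) in the control group. Only 4 of 12 ANG II samples lay above the highest control, because control 2 was at 21.1 FPKM, while the other controls were at 8.76 FPKM or less. The log2 fold change of Lgals3 was 1.46 ± 0.30 (SE; limma, adjusted p = 7.8e-04).

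Gpnmb encodes a glycoprotein of lysosomes and the cell surface that rises in lipid-laden macrophages and is also a melanocyte gene. It was the gene of lowest control median, with a range of 0.0697 to 2.12 FPKM and a median of 1.02 in the control group. In the ANG II group it ranged from 0.757 to 5.60 FPKM, with a median of 2.39, and 8 of 12 samples lay above the highest control. The log2 fold change was 0.81 ± 0.18 (SE; limma, adjusted p = 0.00176), while the ratio of the group means was 2.52, since a pseudocount of 1 understates the change of a gene at this level. With a pseudocount of 0.1 the log2 fold change of Gpnmb was 1.36 (limma, adjusted p = 0.00391). The 5 melanocyte markers Pmel, Tyr, Dct, Mlana and Tyrp1 summed to 3.52 to 10.6 FPKM in the ANG II group and 1.61 to 15.3 FPKM in the control group. None of the 5 melanocyte markers was called by limma or by a Wilcoxon test, and 0 of them reached an unadjusted p under 0.05.

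Cd63 and Cd9 encode tetraspanins, membrane proteins that organise others into domains of the cell surface, with CD63 abundant in late endosomes and lysosomes. Cd63 (chr10:128900989-128912822, plus strand) was the gene with the tightest groups, at 106 to 174 FPKM (median 129) in the ANG II group and 73.9 to 121 FPKM (median 90.7) in the control group. It was the member for which all 12 ANG II samples lay above the control median, and 8 of them lay above the highest control. Its log2 fold change was 0.52 ± 0.093 (SE; limma, adjusted p = 1.86e-04). Samples of the ANG II group lay above the control median in at least 11 of 12 cases for 6 of the 8 genes, and for 15.6% of all genes.

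Cd9 (chr6:125460266-125494791, minus strand) showed a smaller difference, at 31.3 to 63.0 FPKM (median 39.5) in the ANG II group and 17.7 to 42.9 FPKM (median 34.1) in the control group. In the ANG II group 9 of 12 samples lay above the control median and 5 above the highest control. For Cd9 the log2 fold change was 0.42 ± 0.15 (SE; limma, adjusted p = 0.0317). A Wilcoxon rank-sum test gave an adjusted p of 0.138 for Cd9, and leaving out 1 sample at a time gave adjusted p values of limma from 0.0188 to 0.0586. The 7 samples whose removal alone ended the call were samples 1, 4, 6 and 11 of the ANG II group and controls 1, 4 and 6. GENCODE annotates 2 noncoding genes on the plus strand over Cd9, and pseudogene copies named for Cd63 and Cd9. The counting is not stated to use strand or to handle copies, so the values of both genes are uncertain to that extent.

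Fabp5 encodes a fatty acid binding protein that carries lipids inside macrophages, endothelial cells and adipocytes. The gene lies at chr3:10012548-10016607 on the plus strand and has a near copy named Fabp5l2, with the same limit on its counting. It ranged from 13.4 to 60.8 FPKM (median 32.3) in the ANG II group and from 17.6 to 45.8 FPKM (median 27.0) in the control group, and both the lowest and the highest value belonged to the ANG II group. For Fabp5 the log2 fold change was 0.25 ± 0.18 (SE, 95% confidence interval -0.13 to 0.63; limma, adjusted p = 0.300). Fold changes of up to 0.63 on the log2 scale thus lay inside its interval.

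**Figure D1:**
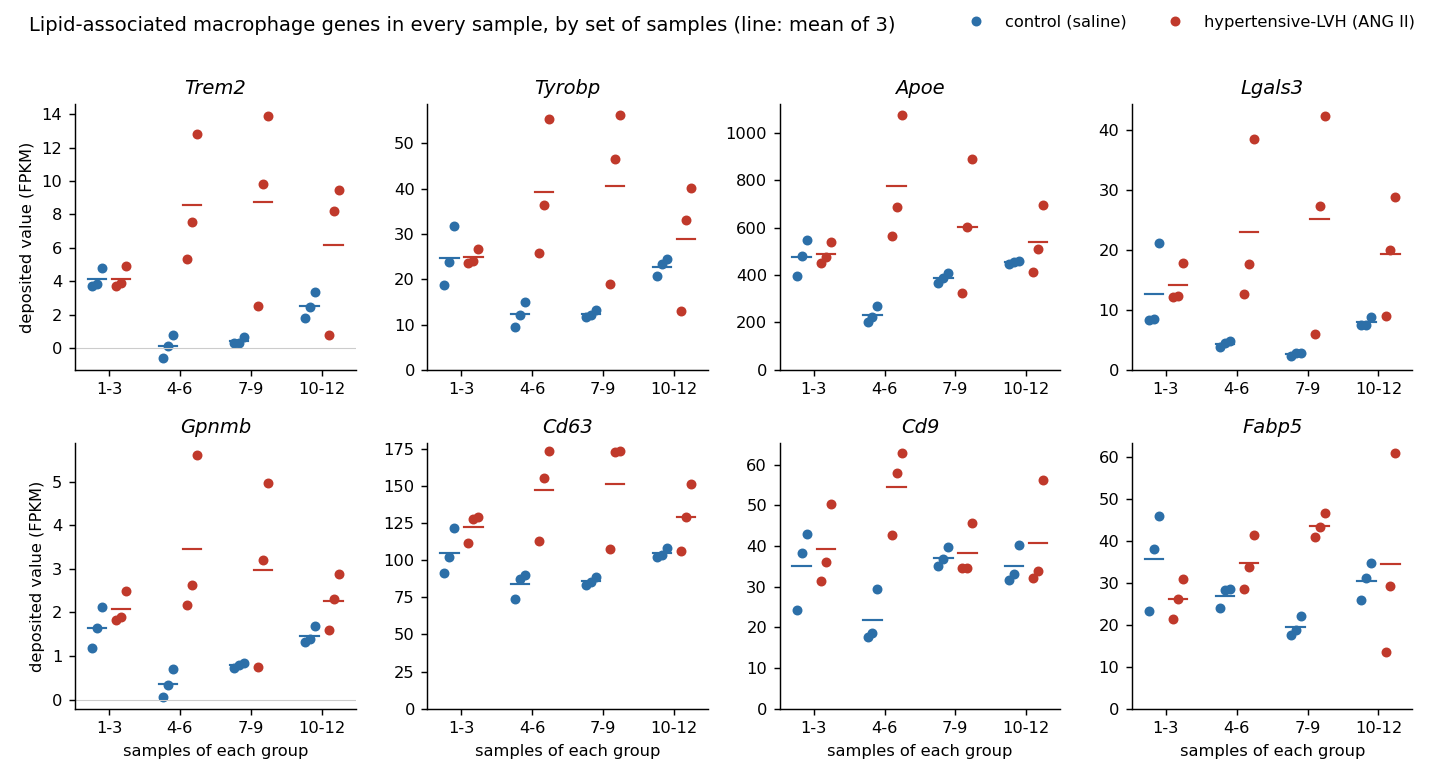
Deposited values (FPKM, linear axes) of the 8 genes in all 24 samples, with the 4 sets of samples (sample numbers) along each horizontal axis, control samples in blue, ANG II samples in red and a line at the mean of each 3 samples. The groups lie apart for all 8 genes in set 2 and overlap for all 8 genes in set 1.

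FPKM is a level per transcript length, but the deposited values were shifted and scaled gene by gene, which enters any comparison between genes. The order below describes the deposited values only. The limits on the counting of Cd63, Cd9 and Fabp5 apply to it too. In the control group the median levels fell in the order Apoe, Cd63, Cd9, Fabp5, Tyrobp, Lgals3, Trem2 and Gpnmb, and the order in the ANG II group was the same. The range of Apoe did not overlap that of Cd63, nor the range of Cd63 that of Cd9, in either group. Each of the other neighbours in this order had overlapping ranges in both groups.

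The samples did not take part equally. Samples 6 and 8 of the ANG II group were each among the 3 highest of their group for 7 of the 8 genes. Sample 12 was among the 3 lowest for 7 genes and sample 9 for 6 genes. The summed FPKM of 15 macrophage markers was 1129 and 1091 in samples 6 and 8, against 395 and 428 in samples 12 and 9, and was 293 to 645 in the controls. Among the controls, control 2 was among the 3 highest for 7 of the 8 genes, control 12 for 5, and controls 1 and 3 for 4 each. These ranks compare samples of different sets, so the unknown shift of each set enters them in both groups.

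The comparison with general macrophage markers asked whether the 8 genes differed by more than the macrophage signal as a whole. Of the 15 markers, 14 were called higher in the ANG II group (20.9% of all genes), and the log2 fold changes of the 15 averaged 0.58. Without controls 4 to 6, 7 of the 15 were called higher (12.3% of all genes), and without set 2 of both groups 2 were (8.36%). Cd68, a lysosomal glycoprotein, rose most of them (0.92 ± 0.22, SE; limma, adjusted p = 0.00290), followed by Itgam, the integrin chain CD11b (0.84 ± 0.19; adjusted p = 0.00169). After the mean of the 15 markers in each sample was subtracted, Trem2 was higher by 0.94 (limma, adjusted p = 3.53e-04) and Lgals3 by 0.87 (adjusted p = 3.15e-04) on the log2 scale. On this relative scale 1.11% of all genes were called higher and 86.9% lower.

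The other 6 genes were not called relative to the macrophage markers. Tyrobp differed by 0.24 (adjusted p = 0.0841), Gpnmb by 0.23 (adjusted p = 0.0892) and Apoe by 0.04 (adjusted p = 0.746). Cd63 differed by -0.06, Cd9 by -0.16 and Fabp5 by -0.33 (adjusted p = 0.0755). Without controls 4 to 6, the differences of Trem2 (0.76, adjusted p = 0.00482) and Lgals3 (0.88, adjusted p = 0.00167) were still called by limma, as 0.877% of all genes were called higher. With a pseudocount of 0.1 in place of 1, Trem2 was higher by 1.69 (limma, adjusted p = 0.00113) and Gpnmb also passed, at 0.69 (adjusted p = 0.0110). Leaving out ANG II sample 12 or control 3 alone brought the call for Tyrobp (adjusted p = 0.0239 and 0.0391), and leaving out ANG II sample 11 or control 2 alone that for Gpnmb (adjusted p = 0.0415 and 0.0461). The markers include genes whose own share among macrophages can vary, and the relative scale was not compared with any count of cells.

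**Figure D2:**
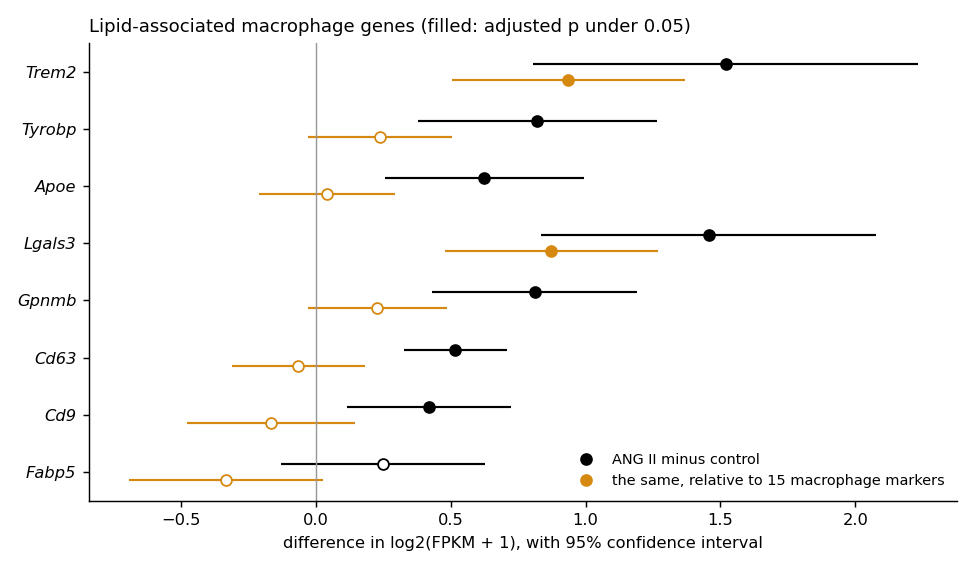
Difference between the ANG II and control groups in log2(FPKM + 1) with its 95% confidence interval for each of the 8 genes, in black as measured and in orange after the mean of 15 macrophage markers was subtracted in each sample. Filled points have an adjusted p under 0.05: 7 genes as measured, and Trem2 and Lgals3 relative to the macrophage markers.

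The difference between the groups varied among the 4 sets of samples. In set 2, 7 of the 8 genes were called higher (26.5% of all genes), and Fabp5 was not. In set 3, 5 were called higher (4.03% of all genes), namely Trem2, Tyrobp, Lgals3, Cd63 and Fabp5. In set 1 (0.0927% of all genes called higher) and in set 4 (1.14%), limma called 0 of the 8 genes, and 0 reached an unadjusted p under 0.05 in either set. The median log2 fold change of the 8 genes was 0.11, 1.60, 1.05 and 0.25 in sets 1 to 4, and that of the 15 macrophage markers was 0.06, 1.31, 0.73 and 0.15. In the same order it was 0.14, 2.85, 0.15 and 0.24 for the 8 fibroblast markers and 0.96, 1.33, 1.71 and 2.92 for the 5 red blood cell genes, and the part of either in these differences was not tested.

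The separation of the groups followed the same order. No gene of the 8 had its 3 ANG II values above all 3 control values in set 1 (6.97% of all genes did). All 8 did in set 2 (38.5% of all genes), 5 in set 3 (10.2%) and 1, Lgals3, in set 4 (10%). In set 1 the controls held 3.72 to 4.79 FPKM of Trem2, and the ANG II samples held 3.70 to 4.89 FPKM. In set 3 the controls held 0.299 to 0.666 FPKM of Trem2, against 2.50, 9.85 and 13.9 FPKM.

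The dependence on the set was tested by a limma interaction of set and group across all genes. Of the 8 genes, Trem2 (adjusted p = 0.0347) and Apoe (adjusted p = 0.0285) were called, as were 7.49% of all genes. After quantile normalization the adjusted p of the interaction was 0.0566 for Trem2 and 0.0617 for Apoe, and 0 of the 8 genes were called. Cd9 (adjusted p = 0.0505) and Tyrobp (adjusted p = 0.0732) did not pass, and the remaining 4 genes had adjusted p values from 0.119 to 0.192. With set 2 of both groups left out, 3 of the 8 genes were called higher (8.36% of all genes), namely Lgals3, Gpnmb and Cd63, and 2 were DEGs (2.3% of all genes as DEGs with an increase). In that fit Trem2 had a log2 fold change of 1.08 (adjusted p = 0.0547), Tyrobp 0.58 (0.0995), Apoe 0.26 (0.204) and Cd9 0.13 (0.484).

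**Figure D3:**
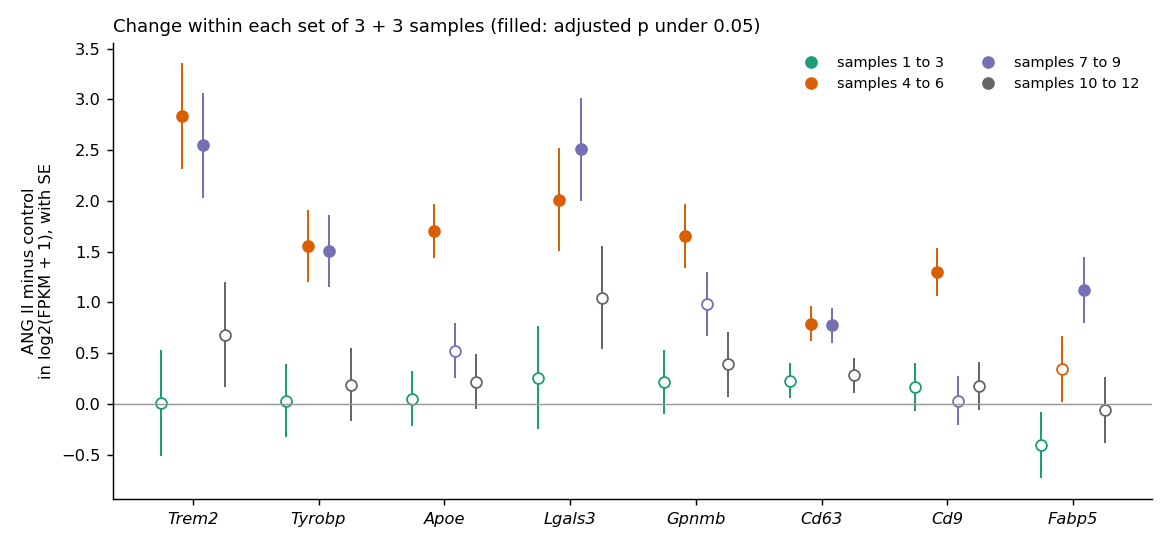
Difference between the ANG II and control groups in log2(FPKM + 1), with its SE, for each of the 8 genes within the 4 sets of 3 and 3 samples. Filled points have an adjusted p under 0.05, and they occur in sets 2 and 3 but not in sets 1 and 4.

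Because the adjustment of the values took the group into account, the differences before it were recovered from the spacing of the values, which were rounded to 0.01 FPKM before the adjustment. The offset of each set could not be recovered, so differences in FPKM are given and no folds. Over all sets, the mean difference before the adjustment was 5.21 FPKM for Trem2, 15.6 for Tyrobp, 214 for Apoe, 12.7 for Lgals3, 1.68 for Gpnmb and 42.4 for Cd63. In an exact permutation test within the sets, adjusted over 13497 genes, these 6 genes were called higher, with adjusted p values from 0.00431 (Cd63) to 0.0359 (Tyrobp), and 18% of all genes were. Cd9 (13.4 FPKM, adjusted p = 0.0596) and Fabp5 (4.09 FPKM, adjusted p = 0.678) did not pass the exact permutation test.

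The direction of several genes changed with the adjustment in set 1. In this set 7 of the 8 genes had a higher mean FPKM in the ANG II samples as deposited (47.5% of all genes were), but 3 of 8 before the adjustment (41.8%), namely Gpnmb, Cd63 and Cd9. Before the adjustment the difference of Trem2 in this set was -0.737 FPKM in place of 0.0334 FPKM as deposited, and that of Apoe was -71.8 FPKM in place of 14.1 FPKM. In each of the other 3 sets, all 8 genes were higher both before and after the adjustment, against 74.9% of all genes before and 74.6% after it in set 2, 53.5% and 46% in set 3, and 59.5% and 57.7% in set 4. Gpnmb, Cd63 and Cd9 were thus higher in all 4 sets before the adjustment, as were 21.9% of all genes.

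Among the genes that act with TREM2 and TYROBP, 16 of the 20 tested were called higher and 0 lower, with a median log2 fold change of 0.43. In the same fit 20.9% of all genes were called higher. A Wilcoxon test called 15 higher and 0 lower, and 17 had an unadjusted p under 0.05 in limma with a higher level and 0 with a lower one. Clu, the gene of the apolipoprotein clusterin, which TREM2 binds, rose most (1.43 ± 0.24, SE; limma, adjusted p = 9.42e-05), from a mean of 674 to 1702 FPKM. The macrophage marker Lyz2 had a mean of 234 FPKM in the ANG II group, and which cells the RNA of Clu came from was not tested. Ms4a7, of a membrane protein family found in macrophages, followed (1.13 ± 0.26; adjusted p = 0.00190). Of the 20 partners, 13 were called higher without controls 4 to 6 (12.3% of all genes) and 10 without set 2 of both groups (8.36%). Trem1 and Trem3 fell below the filter on low values.

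Of 36 other genes named for lipid-associated macrophages, 21 were called higher and 1 lower, with a median log2 fold change of 0.28. Of all 14026 genes, 4697 were called, 2928 of them higher and the others lower. Spp1, which encodes osteopontin, rose most (1.58 ± 0.51, SE; limma, adjusted p = 0.0195), but 3 of its values lay below 0. Ctss, the lysosomal protease cathepsin S, followed (1.33 ± 0.27; adjusted p = 6.13e-04). Which cells the RNA of the genes in this list came from was not tested. Psap, the precursor of the saposins, which help to degrade lipids in lysosomes, was the gene called lower (-0.13 ± 0.044; adjusted p = 0.0276). Without controls 4 to 6, 12 of the 36 were called higher, and neither Spp1 (adjusted p = 0.0899) nor Psap (adjusted p = 0.0879) was called by limma. Without set 2 of both groups, 8 of the 36 were called higher and 2 lower.

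Of 22 relatives of the 8 genes by protein family, 9 were called higher and 2 lower, with a median log2 fold change of 0.22. Calls in both directions were common, with 4697 of all 14026 genes called, 2928 of them higher and the others lower. Apod, another apolipoprotein, rose most (1.22 ± 0.22, SE; limma, adjusted p = 1.81e-04), followed by Lgals3bp, which binds galectin-3 (0.72 ± 0.11; adjusted p = 3.82e-05). The genes called lower were the tetraspanins Tspan7 (-0.26 ± 0.051; adjusted p = 4.38e-04) and Tspan3 (-0.18 ± 0.045; adjusted p = 0.00329), in the direction opposite to Cd63 and Cd9. Of the 22 relatives, 5 were called higher without controls 4 to 6 (12.3% of all genes) and 4 without set 2 of both groups (8.36%). Fabp1, Fabp2, Apoc4 and Apob were not analysed here.

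**Figure D4:**
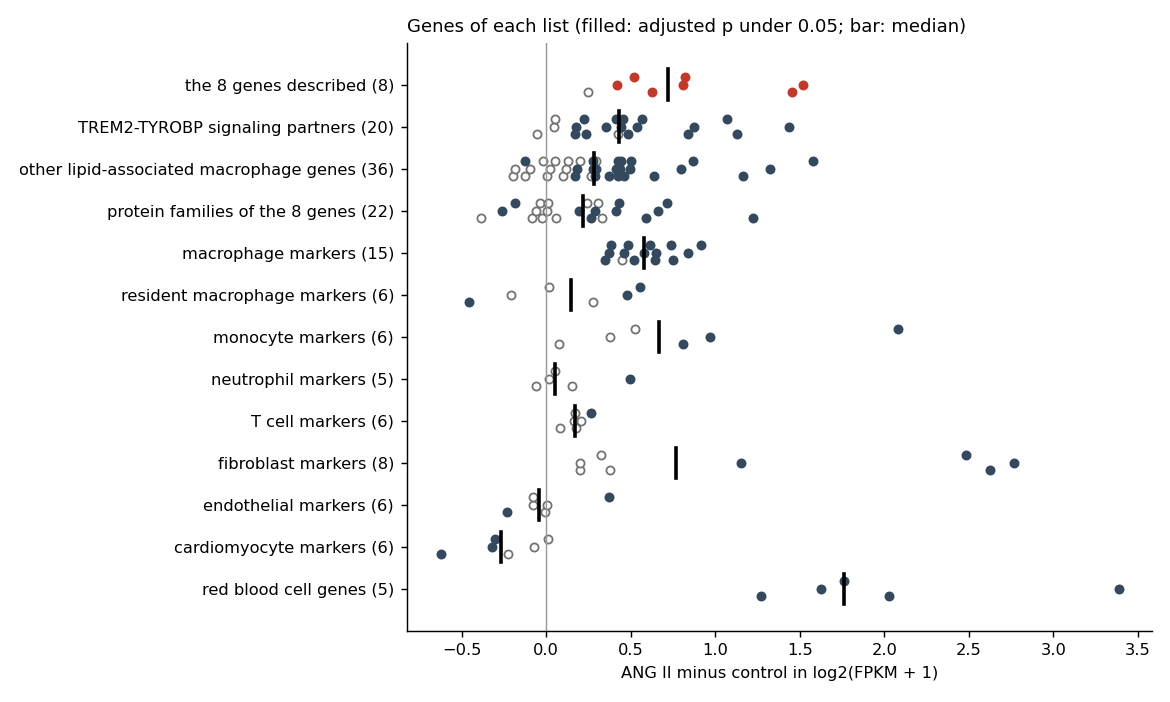
Log2 fold changes on the log2(FPKM + 1) scale of every tested gene in each list, with the number of genes in brackets, filled points for an adjusted p under 0.05 and a bar at the median. The median was 0.72 for the 8 genes described and 0.58 for the macrophage markers.

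Other macrophage and blood cell markers varied beside the 8 genes, in a fit that called 20.9% of all genes higher. Of 6 markers of resident heart macrophages, the scavenger receptor Cd163 (0.55 ± 0.11, SE; limma, adjusted p = 7.83e-04) and Lyve1 (0.48 ± 0.14; adjusted p = 0.00928) were higher, whereas Timd4, a receptor for dying cells, was lower (-0.45 ± 0.11; adjusted p = 0.00213). Of 6 monocyte markers 3 were called higher, led by Fn1 (2.08 ± 0.69; adjusted p = 0.0233) and Plac8 (0.97 ± 0.30; adjusted p = 0.0150), each with 3 values below 0. The mean of Fn1 in the ANG II group was 79.2 FPKM, against 3.94 FPKM or less for every other monocyte marker. Which cells its RNA came from was not tested. Of the other cell types, 1 of 5 neutrophil markers (Csf3r, 0.50) and 1 of 6 T cell markers (Cd3g, 0.26) were called higher, and 1 of 3 B cell markers (Cd79a, -0.25) lower. Of the 6 T cell markers, 5 had an unadjusted p under 0.05 in limma with a higher level, and the Wilcoxon test called 2 higher. When controls 4 to 6 were left out, the log2 fold change of Fn1 was 0.71 (limma, adjusted p = 0.0193), and Plac8 (adjusted p = 0.0595), Csf3r (adjusted p = 0.0805) and Cd3g were not called. None of 5 mast cell markers was called by limma or the Wilcoxon test, and 1 had an unadjusted p under 0.05.

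Markers of other cells moved with the groups too, and their part in the results was not tested. Of 8 fibroblast markers 4 were called higher, led by the collagens Col1a1 (2.77) and Col3a1 (2.63), each with 3 values below 0. Their log2 fold changes without controls 4 to 6 were 1.01 for Col1a1 (limma, adjusted p = 0.00361) and 0.64 for Col3a1 (adjusted p = 0.0257). The sum of the fibroblast markers was 708 to 2639 FPKM in the ANG II group and 25.1 to 1018 FPKM in the control group. All 5 red blood cell genes were called higher, with a median log2 fold change of 1.76 and a sum of 779 to 6443 against 56.2 to 2949 FPKM, in hearts that had been flushed with saline. The labelled tissue was reflected by 6 cardiomyocyte markers, which summed to 23786 to 32312 FPKM in the ANG II group and 30610 to 36953 FPKM in the control group. Of these, 3 were called lower, led by Tnni3 (-0.63) and Pln (-0.32). Of 6 endothelial markers 1 was called higher (Pecam1, 0.37) and 1 lower (Kdr, -0.23), and of 6 smooth muscle and pericyte markers 2 were higher (Tagln, 1.32, and Cnn1, 1.02) and 1 lower (Kcnj8, -0.58). Tagln (0.54) and Cnn1 (0.58) were not called without controls 4 to 6 (limma, adjusted p = 0.200 and 0.105). None of 4 adipocyte and 4 Schwann cell markers was called by either test, and 0 had an unadjusted p under 0.05.

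The 8 genes were last compared by how they varied from sample to sample inside a group. For this, the mean of each group in each set was removed from log2(FPKM + 1), and Pearson's r was taken over the 24 samples as a description. The samples shared the adjustment of the table. Over the 28 pairs of the 8 genes the median r was 0.56. Trem2 and Tyrobp were the most alike pair (r = 0.86), and Gpnmb and Fabp5 the least (r = -0.30).

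With the mean of the 15 macrophage markers, r was 0.92 for Apoe, 0.87 for Tyrobp, 0.83 for Trem2, 0.80 for Lgals3, 0.71 for Cd63 and 0.68 for Gpnmb, but 0.25 for Cd9 and 0.17 for Fabp5. Leaving out the 2 samples whose marker mean was most extreme gave r of 0.82, 0.82, 0.77, 0.60, 0.53, 0.27, 0.15 and 0.32 in the same order, so the value of Gpnmb rested on those samples. With the fibroblast markers r was 0.88 for Apoe (0.80 without 2 samples) and 0.71 for Lgals3 (0.52 without 2 samples). Fabp5 had r of 0.82 with the 6 endothelial markers and 0.42 with the fibroblast markers over all 24 samples, but 0.57 and 0.58 without 2 samples. Cd9 varied with the smooth muscle and pericyte markers (r = 0.72, and 0.57 without 2 samples) and with the fibroblast markers (r = 0.71, and 0.75 without 2 samples). With the red blood cell genes, r lay between -0.17 and 0.25 for all 8 genes, and with the 6 cardiomyocyte markers between -0.74 and -0.40. Without 2 samples, the T cell markers gave r of 0.755 for Lgals3, 0.67 for Cd63, 0.51 for Gpnmb and 0.38 for Cd9. Each was above the value with the macrophage markers. For Apoe (0.73), Trem2 (0.68), Tyrobp (0.63) and Fabp5 (0.22) the T cell value was the lower one. Likeness to the macrophage markers was therefore not particular to them.

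**Figure D5:**
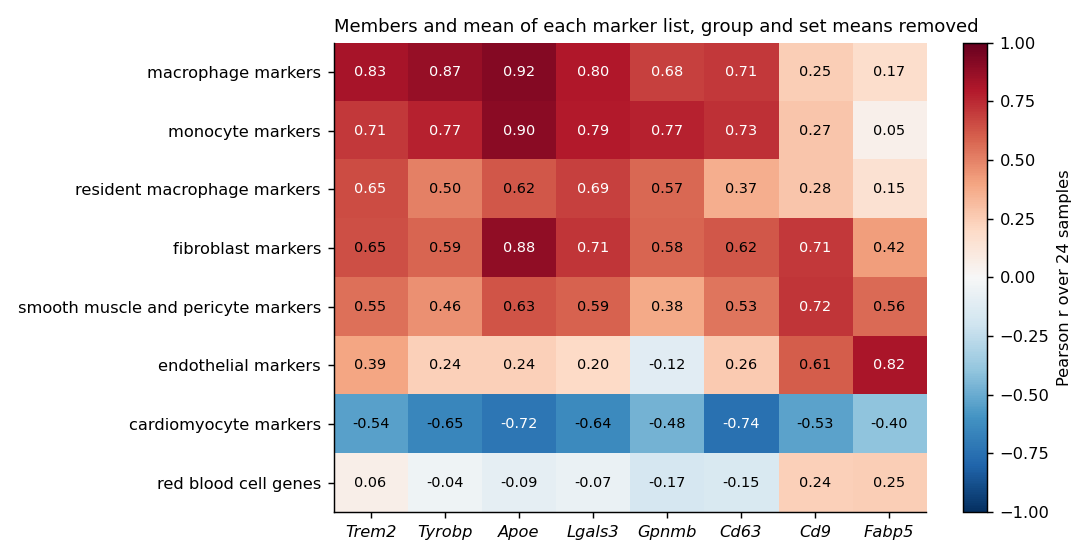
Pearson's r over 24 samples between each of the 8 genes and the mean of each marker list, after the mean of each group in each set was removed from log2(FPKM + 1). Trem2, Tyrobp, Apoe and Lgals3 have r of 0.80 to 0.92 with the macrophage markers, and Fabp5 has its highest r, 0.82, with the endothelial markers.

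Among all 11458 genes with a mean of at least 1 FPKM, those most like each of the 8 genes were sought. Trem2 was most like Nmrk2 (r = 0.93), Nrros (0.92) and the tetraspanin Cd37 (0.92). Tyrobp was most like Cyba, a subunit of the phagocyte NADPH oxidase (0.96), the complement gene C1qc (0.96) and the lysozyme gene Lyz2 (0.96), the last 2 of which are among the 15 macrophage markers. Genes most like Apoe included Npc2, a lysosomal gene (0.95), and Arpc5 (0.94). Lgals3 was most like Basp1 (0.90), the lysosomal phosphatase gene Acp5 (0.90) and Rab7b (0.90).

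The other 4 genes had different neighbours. Gpnmb was most like the cytokine receptor gene Csf2rb (0.89), Tlr13 (0.89) and Plek (0.85). Cd63 was most like Cebpa (0.91), Slc39a13 (0.90) and B4galt5 (0.90), and Cd9 was most like Slc44a1 (0.93), Reck (0.92) and Ptgs1 (0.91). Fabp5 was most like Tbxa2r, the thromboxane receptor gene (0.90), Cdipt (0.89) and Fmnl3 (0.88).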

How the data were processed

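RNA of 24 left ventricles (12 per group, grouped by the labels) was sequenced by the authors with paired reads. The authors deposited 1 table of gene-level values that the methods call FPKM. The submitters' processing notes name Bowtie2, HISAT and RSEM, and versions and genome build are not given in the sources used here. Since values lie below 0, the deposited values were handled as a score on the FPKM scale, adjusted in 4 sets of samples (joined within a group where at least 100 genes were tied, and across the groups by sample number, which the interaction and the tests within sets rest on). The depth of the samples is unknown, and the columns sum to 460715 to 567727. The methods describe the samples as biological replicates, which were read as separate mice.

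The 8 genes and all gene lists were chosen with earlier results of these data known. Negative values were set to 0, log2(FPKM + 1) was taken, and the 14026 genes whose mean reached 0.1 were fitted with limma 3.58.1 (eBayes with trend) in R 4.3.3, without covariates. P-values were adjusted by Benjamini-Hochberg over all genes, and calls used 0.05. Fold changes on this scale understate the change of low genes. Because the deposited values were adjusted with the groups, their p-values can be too small. The scale of each set was recovered from steps of 0.01 FPKM for 13497 genes (96.2%), including all 8, and tested by exact two-sided permutation within sets (160000 relabelings, smallest p 1.25e-05). Both steps were tested on simulated data. Named genes are the 8, the called genes of each list with the 2 largest increases and decreases and those against its majority, and the 3 genes most like each of the 8, of which 1 is not reported here. Lists cover TREM2-TYROBP partners, other lipid-associated macrophage genes, protein families, and markers of macrophages, resident macrophages, monocytes, neutrophils, T, B and mast cells, fibroblasts, endothelium, smooth muscle and pericytes, cardiomyocytes, adipocytes, melanocytes, red blood cells and Schwann cells.

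Alternatives were no filter, a minimum mean of 1, a pseudocount of 0.1, quantile normalization, median-ratio scaling, the set as a term, the replicate number as a block, a Wilcoxon test, and leaving out each sample or set. Leaving out controls 4 to 6 was added after the data were seen.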

Additional observations from a re-analysis of the deposited data

Results flagged for a closer look

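The response of Trem2 to ANG II differed between the 4 sets of samples (interaction of set and group, limma, adjusted p = 0.0347). Its log2 fold change was 0.0080 in set 1 (samples 1 to 3), 2.84 in set 2 (4 to 6), 2.55 in set 3 (7 to 9) and 0.68 in set 4 (10 to 12). The controls averaged 4.12, 0.114, 0.421 and 2.515 FPKM of Trem2 in the same order, so the folds of sets 2 and 3 rest on controls near 0. The response of Apoe differed likewise (adjusted p = 0.0285), with log2 fold changes of 0.05, 1.71, 0.52 and 0.22 in the same order. In set 2, where both were largest, the 3 controls held 201 to 268 FPKM of Apoe and the summed fibroblast markers of these controls were also low, at 25.1 to 177 FPKM. The mean of Apoe in sets 1 to 4 was 490, 777, 605 and 541 FPKM in the ANG II samples. In the controls it was 476, 230, 387 and 454 FPKM, in the opposite order of the sets. Low controls of a set and the shift of that set before deposit cannot be told apart, and their part in the interaction was not tested. The levels of a set were shifted and scaled gene by gene before deposit, which enters these fold changes. After quantile normalization neither interaction was called (limma, adjusted p = 0.0566 for Trem2 and 0.0617 for Apoe).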

How the results depend on the processing

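The median of the 8 genes, their order of levels and the calls of Lgals3, Gpnmb and Cd63 rest on 12 mice per group whose sequencing depth is unknown, in values adjusted with the groups, which limits every p-value over all samples. Lgals3, Gpnmb and Cd63 were called higher under each alternative tried. With 1 sample left out at a time, 6 to 7 of the 8 genes were called higher, 5 to 6 were DEGs, 2 to 3 lay above the macrophage markers and 0 to 1 below them. The same range was 10 to 15 for the macrophage markers called higher, 13 to 17 for the partners of TREM2 and TYROBP, 15 to 23 higher and 1 to 2 lower for the other lipid-associated macrophage genes, and 6 to 10 higher and 2 to 3 lower for the protein families. The cause of the following changes was not tested.

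Without samples 4 to 6 of both groups, 3 of the 8 genes were called higher and 2 were DEGs, and the counts called higher were 2 macrophage markers, 10 partners, 8 other lipid-associated macrophage genes (2 called lower) and 4 genes of the protein families. Without controls 4 to 6 these counts were 7 macrophage markers, 12 other lipid-associated macrophage genes and 5 of the protein families. Without samples 7 to 9, 5 genes of the protein families were called higher and 1 of the 8 genes, Fabp5, was below the macrophage markers (-0.55, limma adjusted p = 0.0149). The lipid-associated macrophage gene called lower became 0 genes without samples 7 to 9, without samples 10 to 12 or with the set as a term, 3 genes after quantile normalization and 4 after median-ratio scaling, which also called 1 partner lower. After quantile normalization 0 of the 8 genes had a called interaction.

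Some values changed sign under an alternative, and none of them passed the test under any alternative. Relative to macrophage markers, Apoe was -0.036 with a pseudocount of 0.1, -0.11 without samples 4 to 6 and -0.067 without controls 4 to 6. On the same scale Cd63 was 0.053 without samples 4 to 6 and 0.00080 without controls 4 to 6. Cd9 on this scale was 0.041 without samples 7 to 9. The log2 fold change of Fabp5 was -0.042 without samples 7 to 9, while within set 3 Fabp5 was called higher. Fabp5 was called below the macrophage markers when sample 9 or 11 of the hypertensive-LVH group or control 1 was left out. Tyrobp was called above these markers without sample 12 of the hypertensive-LVH group (0.30), without control 3 (0.29) or without samples 1 to 3 of both groups (0.34, limma adjusted p = 0.0490), and Gpnmb without sample 11 of the hypertensive-LVH group (0.28) or control 2 (0.27).

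Samples with the same number did not deviate together (r from -0.56 to -0.0011 over 12 pairs, median -0.22, with 0 pairs over 0.1). The values were shifted and scaled by set with the groups taken into account, which enters these r. The r values therefore cannot show whether the numbers pair the mice. With the replicate number as a block in limma, 5 of the 8 genes were called higher, with Apoe (adjusted p = 0.0520) and Cd9 (adjusted p = 0.125) not called. In that fit 2824 of 14026 genes were called, 56.2% of them higher. The block left 13 other lipid-associated macrophage genes called higher and 0 lower, and 5 genes of the protein families called higher. No hypertensive-LVH sample correlated best with the control of its own number (0 of 12).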
